A study of Mus musculus with 9 samples.

Results

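The 10 genes described here make and carry retinoic acid, sense it and break it down in the cell. They are Stra6, Crabp1, Crabp2, Aldh1a1, Aldh1a2, Aldh1a3, Aldh1a7, Rarb, Rarg and Cyp26b1, out of 52780 genes in the count table. They were chosen by name from the retinoid pathway with their measured values in these samples known, so the differences given for them are a description. No p-value is printed for any of them, and whether one was called, in the sense defined below, describes the fit and supports nothing. The samples were C2C12 cells, an immortal mouse myoblast line that forms myotubes when serum is withdrawn. All 9 samples were collected at day 4 of differentiation. The 3 WT samples carry the genotype label Wild Type, and the labels do not say whether they received a control siRNA. The 3 si mH2A1.1 samples received siRNA against macroH2A1.1, and the 3 si mH2A1.2 samples received siRNA against macroH2A1.2, each at 10 nM and in repeated doses before and during differentiation. MacroH2A1.1 and macroH2A1.2 are splice isoforms of 1 histone variant gene, and the study asked how each isoform bears on differentiation and cell fusion. All samples come from 1 cell line, and a dish holds unfused cells beside myotubes.

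Retinoic acid is the hormone-like form of vitamin A. Retinol bound to its plasma carrier enters some cells through the membrane receptor STRA6, dehydrogenases turn it into retinal, and the aldehyde dehydrogenases of the ALDH1A family oxidise retinal to retinoic acid. CRABP2 hands retinoic acid to its nuclear receptors, while CRABP1 holds it in the cytosol. The receptors (RAR, bound to a partner RXR) sit on direct repeats of a short DNA half-site and turn target genes on or off, and the CYP26 enzymes oxidise retinoic acid and so end the signal. In muscle cells, retinoic acid is known to act on the exit from the cell cycle and on differentiation.

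The deposited counts, which Salmon estimated from single reads, summed to between 36924252 and 42223108 per sample. Levels are given as CPM, counts scaled to a library of 1000000, and genes are compared with each other only as CPM per kilobase of exon. A gene is called here when its adjusted p was below 0.01 and its absolute log2 fold change at least 0.8 in edgeR's quasi-likelihood test. H2afy, the gene of both macroH2A1 isoforms, was at 59.9 ± 3.18 CPM (SD, n = 3) in WT, 33.3 ± 4.87 in si mH2A1.1 cells and 45.7 ± 2.2 in si mH2A1.2 cells. Its log2 fold change was -0.85 in si mH2A1.1 cells (edgeR with Benjamini-Hochberg adjustment, adjusted p = 0.00331) and -0.39 in si mH2A1.2 cells (adjusted p = 0.108). All 3 samples of either knockdown lay below the WT range, and gene counts do not separate the isoforms. The call with si mH2A1.1 was lost without WT replicate 2 or 3 or without si mH2A1.1 replicate 2 or 3, and the log2 fold change over all fits that left out 1 library was -0.97 to -0.78. The 10 myotube markers had counts in every sample, with a summed level of 18666 to 27725 CPM in WT, 17690 to 21389 in si mH2A1.1 cells and 16070 to 20385 in si mH2A1.2 cells. In bulk RNA, fewer cells of a type and less RNA per cell cannot be told apart. With 3 samples against 3, an exact permutation test of a single value cannot go below 0.1, and p-values measure the spread between these samples. The study describes its replicates as biologically independent, and the labels name no cultures.

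The promoter of Rarb is shown first because a retinoic acid response element there is a textbook case. RefSeq promoter windows (build GRCm38.p6, 250 bases before to 50 after a gene start) were at hand for 8 of the 10 genes. They were searched on both strands for direct repeats of the half-sites AGGTCA (the consensus spelling), GGGTCA (1 base apart from it), AGTTCA (1 base apart) and GGTTCA (2 bases apart) with 5, 2 or 1 bases between the copies, in any mix of spellings. The Rarb window (chr14:16575427-16575726, minus strand) held 1 repeat with 5 bases between, at positions -53 to -37 from the start of that window's promoter (chr14:16575513-16575529). That start is an internal one, inside the gene as annotated (16430839 to 16819156). The window is printed 5′ to 3′ with the repeat in capitals.

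Rarb: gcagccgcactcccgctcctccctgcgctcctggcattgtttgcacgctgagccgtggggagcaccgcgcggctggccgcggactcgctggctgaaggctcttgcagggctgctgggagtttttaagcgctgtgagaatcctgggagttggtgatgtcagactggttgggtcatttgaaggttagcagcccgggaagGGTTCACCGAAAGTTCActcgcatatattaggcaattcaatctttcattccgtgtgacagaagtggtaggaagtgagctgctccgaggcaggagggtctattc

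A repeat of this spacing was in the windows of 0.115% of the 27025 genes with a window, and a repeat of any of the 3 spacings in those of 0.688%. Among the other 7 retinoid genes with a window, 0 held such a repeat. Among 54 further genes of the pathway with a window, Cyp26a1 held 1 with 5 bases between and Bco1 held 1 with 1 base between. In Cyp26a1, the repeat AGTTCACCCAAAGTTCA lay on the opposite strand at positions -32 to -16 (chr19:37697776-37697792). A match says only that these letters stand in the window. Crabp2 and Aldh1a3 had no window in the table.

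The windows of Aldh1a1 and Aldh1a7 are shown because these paralogs, neighbours on chromosome 19, share sequence. Of the 2 windows of Aldh1a1, the one at chr19:20601718-20602017 on the plus strand matched the Aldh1a7 window (chr19:20727507-20727806, minus strand) at 82.2% of aligned bases. This Aldh1a1 window lies inside the gene as annotated (20492715 to 20643465). Capitals mark the longest run the windows share, 65 bases at positions -94 to -30 in each.

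Aldh1a1: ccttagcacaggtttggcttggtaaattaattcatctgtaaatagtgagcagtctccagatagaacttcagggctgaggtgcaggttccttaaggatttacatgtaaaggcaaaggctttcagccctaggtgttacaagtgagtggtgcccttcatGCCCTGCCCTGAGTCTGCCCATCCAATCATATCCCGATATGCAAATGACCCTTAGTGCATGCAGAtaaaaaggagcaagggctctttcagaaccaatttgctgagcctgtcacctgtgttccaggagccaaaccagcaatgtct
Aldh1a7: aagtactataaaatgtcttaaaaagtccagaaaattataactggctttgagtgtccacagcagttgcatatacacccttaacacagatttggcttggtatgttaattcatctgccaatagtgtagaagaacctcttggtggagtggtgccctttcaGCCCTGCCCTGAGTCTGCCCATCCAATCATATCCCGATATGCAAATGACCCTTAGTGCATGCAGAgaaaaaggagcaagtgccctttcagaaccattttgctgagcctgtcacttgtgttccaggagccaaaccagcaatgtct

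Their longest transcripts were 89.5% identical over 2017 aligned bases. The transcripts shared 151 windows of 50 bases, the length of a read, which were 3.06% of the windows of Aldh1a1 and 7.49% of those of Aldh1a7. Salmon divides such reads between the genes by estimation, so the split of counts between this pair is uncertain. For Rarb, 34.1% of the 50-base windows also occurred, on either strand, in transcripts of its overlapping neighbour Top2b and of Gm48162, so its count is uncertain as well. For Aldh1a3 the share was 1.15%, and for the other 6 genes 0 windows were shared.

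Per kilobase of exon, the receptor gene Rarg and the binding protein gene Crabp2 stood far above the other 8 genes in every group. In WT, Rarg was at 24.2 ± 5.46 CPM per kb (SD, n = 3) and Crabp2 at 22.5 ± 2.69, and their ranges overlapped. The next gene, Aldh1a3, was at 0.555 ± 0.144 CPM per kb, followed by Cyp26b1 at 0.333 ± 0.0746. Crabp1 (0.186), Stra6 (0.174), Rarb (0.0619), Aldh1a1 (0.043), Aldh1a7 (0.017) and Aldh1a2 (0.00394) followed, and each of these overlapped its neighbour. With si mH2A1.1, Rarg (18.3) lay above Crabp2 (9.99) without overlap, and Aldh1a7 (0.584) lay beside Cyp26b1 (0.51), whose range it overlapped. With si mH2A1.2, Crabp2 (42.9) lay above Rarg (30.6) without overlap, and Stra6 (1.39) overlapped Aldh1a3 (1.08).

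**Figure D1:**
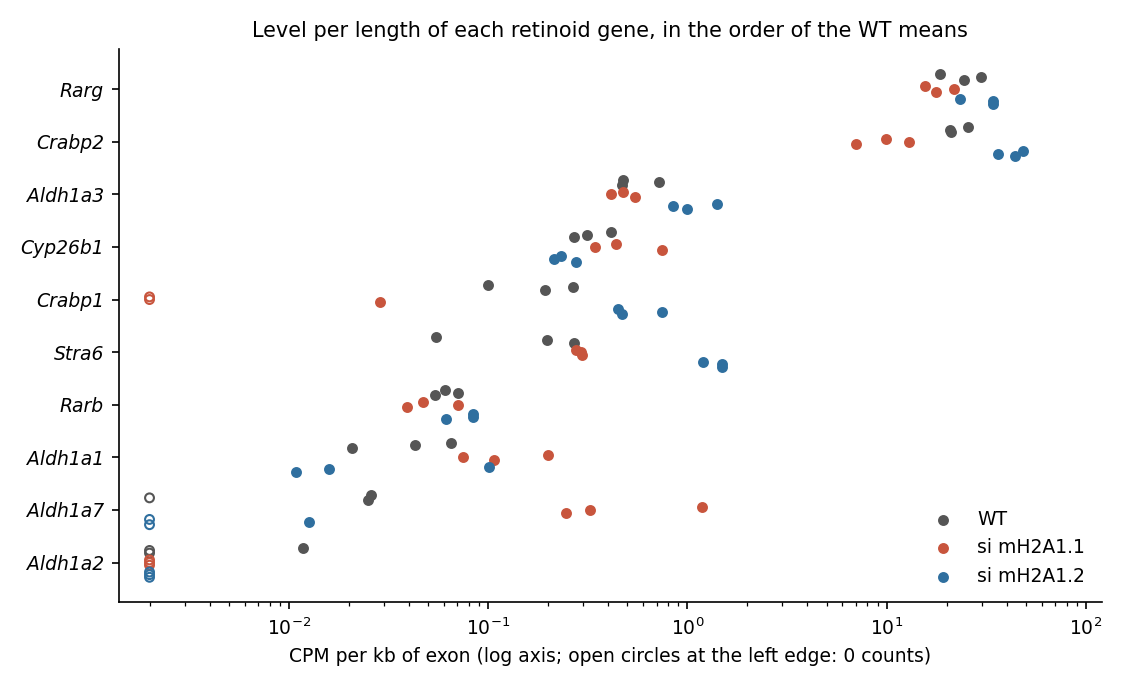
Level of each gene in CPM per kb of exon on a log axis, 1 point per sample, coloured by group (3 samples each), with genes in the order of the WT means. Open circles at the left edge are samples with 0 counts, and Rarg and Crabp2 lie above 7 CPM per kb in all 9 samples while every other gene lies below 2.

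Of the 3 genes of the set for uptake and binding, Crabp1 and Crabp2 had lower means than WT in si mH2A1.1 cells, and all 3 had higher means than WT in si mH2A1.2 cells. Stra6, the receptor for the plasma carrier of retinol (ENSMUSG00000032327, chromosome 9, 58063788 to 58153996), was at 0.321, 1.15 and 1.57 CPM in WT replicates 1, 2 and 3. It was at 1.61, 1.7 and 1.73 CPM in si mH2A1.1 cells and at 6.96, 8.69 and 8.65 CPM in si mH2A1.2 cells. All 3 si mH2A1.2 samples stood above every other sample, and the si mH2A1.1 samples lay just above the WT range, in which replicate 1 was the lowest. The mean rose from 1.01 ± 0.636 CPM in WT to 8.1 ± 0.984 in si mH2A1.2 cells, 7.96-fold in the fit (log2 fold change 2.99, standard error 0.40, called). With si mH2A1.1 the log2 fold change was 0.72 (standard error 0.40, not called, and 0.30 without WT replicate 1), and between the knockdowns -2.27 (standard error 0.38, called). The call against WT was lost when any 1 library other than WT replicate 1 was left out, and the log2 fold change then ran from 2.57 to 3.45 over the 9 fits. The call between the knockdowns was lost without si mH2A1.1 replicate 1 or 3 or without si mH2A1.2 replicate 2 or 3, with values of -2.37 to -2.22.

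Crabp2 (ENSMUSG00000004885, chromosome 3, 87948666 to 87953376), the shuttle that carries retinoic acid to the nucleus, stood lowest in si mH2A1.1 cells and highest in si mH2A1.2 cells. It was at 33.9, 27.6 and 27.8 CPM in the WT samples. With si mH2A1.1 it was at 13.1, 17.2 and 9.28 CPM, and in si mH2A1.2 cells at 63.6, 48.1 and 58.2 CPM. The 3 groups did not overlap. The log2 fold change was -1.17 in si mH2A1.1 cells (standard error 0.20, 2.25-fold lower, called) and 0.93 in si mH2A1.2 cells (standard error 0.20, 1.9-fold higher, not called). Between the knockdowns it was -2.10 (standard error 0.21, called), 4.29-fold lower in si mH2A1.1 cells. Leaving out any 1 library other than si mH2A1.1 replicate 2 ended the call against WT, with values of -1.41 to -0.97, while the call between the knockdowns stood in all 9 fits. With DESeq2, the increase in si mH2A1.2 cells (0.92) was also called.

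Crabp1 (ENSMUSG00000032291, chromosome 9, 54764748 to 54773110), which binds retinoic acid in the cytosol, had the same order of groups at a level near the limit of detection. Its counts were 3, 8 and 6 in WT, 0, 0 and 1 in si mH2A1.1 cells, and 13, 23 and 14 in si mH2A1.2 cells. No groups overlapped. From summed counts, the level in si mH2A1.2 cells was 2.99 times that of WT (95% exact interval 1.69 to 5.53) and that in si mH2A1.1 cells was 0.0538 times that of WT (0.00129 to 0.343), intervals that cover counting error only. The fitted log2 fold change was -3.76 in si mH2A1.1 cells (standard error 0.86, not called), 1.55 in si mH2A1.2 cells (standard error 0.48, not called) and -5.32 between the knockdowns (standard error 0.74, called). Without si mH2A1.1 replicate 3, the 1 sample of that group with a count, the fitted values were -5.55 against WT and -7.10 between the knockdowns, which depend on the prior count and are no bound. Over the 9 fits that left out 1 library they were -5.55 to -3.33 and -7.10 to -4.89, and the call between the knockdowns stood in all 9. Crabp1 passed the filter on low counts through its 3 si mH2A1.2 samples alone, and 3 counts, taken as the floor, were worth 0.0691 to 0.0826 CPM in these libraries.

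**Figure D2:**
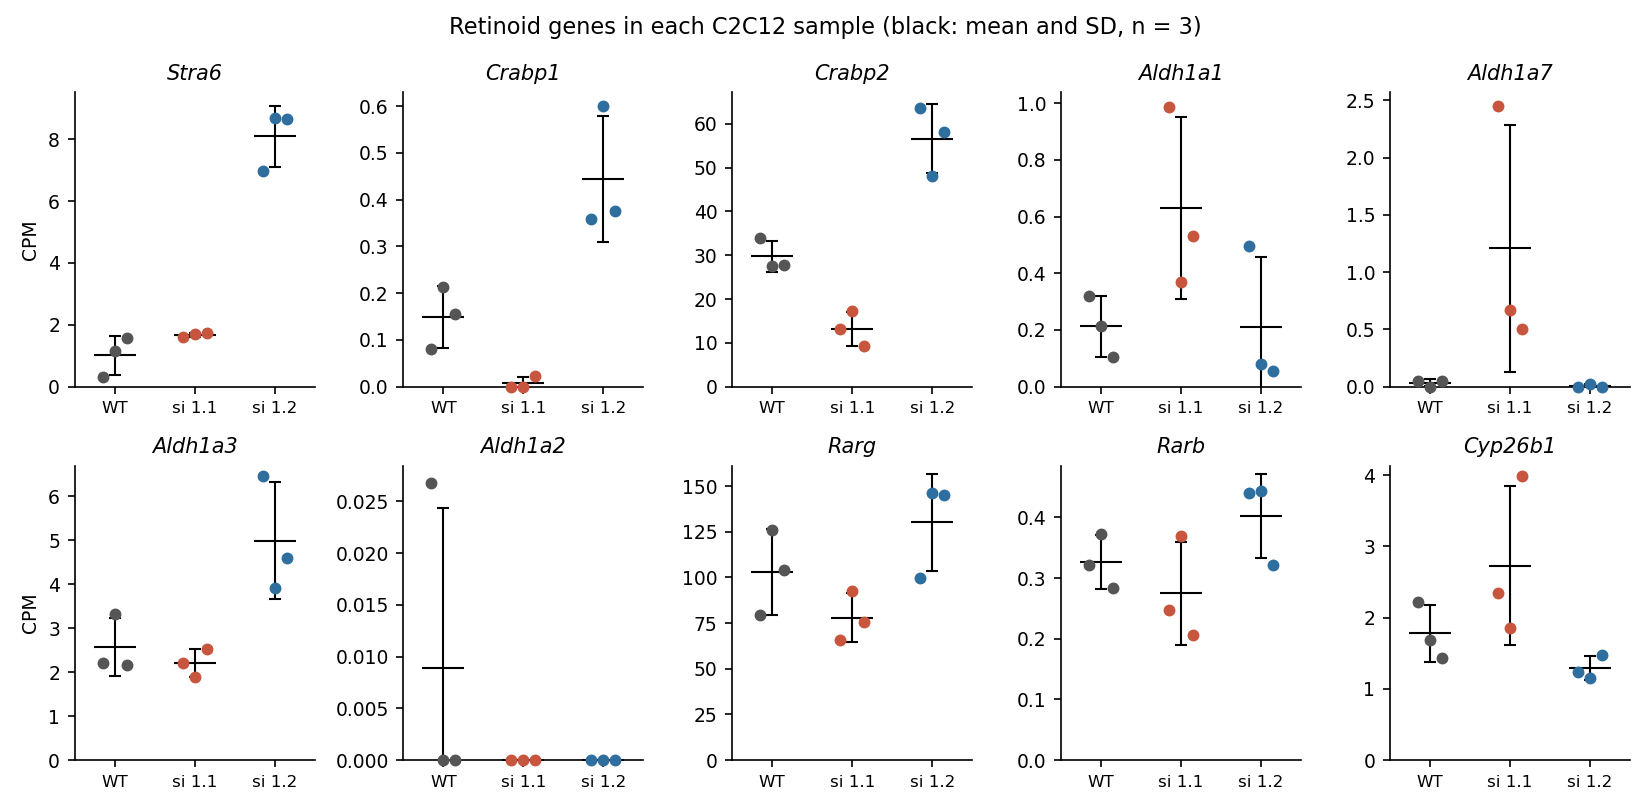
CPM of the 10 genes in each of the 9 samples, 1 panel per gene with its own linear axis from 0. Coloured points are samples (replicates 1, 2 and 3 from left to right), and black lines give the mean and SD of each group (n = 3). Crabp2 and Crabp1 are lowest in si mH2A1.1 cells and highest in si mH2A1.2 cells, Stra6 is highest in si mH2A1.2 cells, and Aldh1a7 is highest in si mH2A1.1 cells.

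The 4 ALDH1A genes, whose enzymes oxidise retinal or related aldehydes, differed in their order of the groups. Aldh1a3 (ENSMUSG00000015134, chromosome 7, 66390890 to 66427517) had the most counts of the 4. It was at 2.2, 3.33 and 2.17 CPM in WT, 2.2, 1.9 and 2.53 CPM in si mH2A1.1 cells, and 6.47, 3.91 and 4.59 CPM in si mH2A1.2 cells. The si mH2A1.2 samples lay above all others, and the other groups overlapped. The log2 fold change was 0.96 in si mH2A1.2 cells (standard error 0.25, 1.95-fold, not called, and called with DESeq2), -0.21 in si mH2A1.1 cells (standard error 0.25, not called) and -1.17 between the knockdowns (standard error 0.25, called). The last call was lost when any 1 library other than WT replicate 2 was left out (values of -1.32 to -0.94).

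Aldh1a7 (ENSMUSG00000024747, chromosome 19, 20692953 to 20727562), a rodent paralog of Aldh1a1 whose part in retinoic acid synthesis is less clear, was nearly silent outside the si mH2A1.1 group. It had 99, 27 and 22 counts there, against 2, 0 and 2 in WT and 0, 1 and 0 in si mH2A1.2 cells. All 3 si mH2A1.1 samples lay above every other sample, and replicate 1 held more counts than the other two together. From summed counts, the level in si mH2A1.1 cells was 33.8 times that of WT (95% exact interval 12.9 to 126) and 133 times that in si mH2A1.2 cells (23.5 to 5294). These intervals cover counting error only and leave out the spread between libraries. The summed counts below these ratios were 4 in WT and 1 in si mH2A1.2 cells. The fitted log2 fold change was 4.97 (standard error 0.88, called) against WT and 6.63 (standard error 1.07, called) between the knockdowns. Every WT and si mH2A1.2 library held fewer than 3 counts, so both fitted values depend on the prior count and are no bound. Without si mH2A1.2 replicate 2, the 1 sample of that group with a count, the value between the knockdowns was 8.55. No fold is given for si mH2A1.2 against WT, where all libraries were under 3 counts. Aldh1a7 passed the filter through the si mH2A1.1 samples alone. Leaving out any 1 library other than si mH2A1.1 replicate 2 ended the call against WT (3.95 to 5.36), and leaving out any si mH2A1.2 library ended that between the knockdowns (5.60 to 8.55).

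Aldh1a1 (ENSMUSG00000053279, chromosome 19, 20492715 to 20643465), a major retinal dehydrogenase, had 12, 8 and 4 counts in WT, 40, 15 and 23 in si mH2A1.1 cells and 18, 3 and 2 in si mH2A1.2 cells. Replicate 1 was the highest sample in each group. The si mH2A1.1 samples lay above the WT range and overlapped the si mH2A1.2 range. The log2 fold change was 1.56 in si mH2A1.1 cells (standard error 0.70), -0.03 in si mH2A1.2 cells (standard error 0.79) and 1.59 between the knockdowns (standard error 0.71), none of them called. Without si mH2A1.2 replicate 1 they were -1.64 in si mH2A1.2 cells and 3.19 between the knockdowns, so both values rest on that library. Without si mH2A1.1 replicate 1 the value against WT was 1.08. Aldh1a1 passed the filter only with the help of the si mH2A1.1 samples. With the counts of Aldh1a1 and Aldh1a7 added together, an alternative chosen after the values were seen, the log2 fold change was 2.88 in si mH2A1.1 cells and -0.19 in si mH2A1.2 cells, and neither was called. Aldh1a2 (ENSMUSG00000013584), the main retinoic acid producer of the embryo, had 1 count in WT replicate 1 and 0 in the other 8 samples, and was the 1 gene of the set that did not pass the filter.

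The receptor genes showed smaller differences. Rarg (ENSMUSG00000001288, chromosome 15, 102234938 to 102257517), which encodes a retinoic acid receptor, was at 79.2, 126 and 104 CPM in WT. It was at 66, 92.6 and 75.6 CPM in si mH2A1.1 cells and at 99.7, 146 and 145 CPM in si mH2A1.2 cells. Either knockdown overlapped WT, and the knockdowns did not overlap each other. Replicate 1 was the lowest of each group, and among samples of the same number si mH2A1.1 lay below WT in 3 of 3 and si mH2A1.2 above WT in 3 of 3. The log2 fold change was -0.40 in si mH2A1.1 cells (standard error 0.20), 0.34 in si mH2A1.2 cells (standard error 0.20) and -0.74 between the knockdowns (standard error 0.20), none of them called. With the replicate number as a block the values were -0.39, 0.35 and -0.73 with standard errors of 0.0888 to 0.0893, and none reached the fold limit of 0.8. Rarb (ENSMUSG00000017491, chromosome 14, 16430839 to 16819156), the receptor gene whose promoter window holds the repeat printed above, had 12, 14 and 11 counts in WT, 10, 15 and 9 in si mH2A1.1 cells and 16, 17 and 12 in si mH2A1.2 cells. All 3 groups overlapped, and among samples of the same number si mH2A1.1 lay below WT and si mH2A1.2 above WT in 3 of 3 each. The log2 fold changes were -0.25 in si mH2A1.1 cells, 0.30 in si mH2A1.2 cells and -0.55 between the knockdowns, with standard errors of 0.33 to 0.34. At this depth, no difference of Rarb was called.

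Cyp26b1 (ENSMUSG00000063415, chromosome 6, 84571414 to 84593908), which clears retinoic acid, had group means in the reverse order of the binding proteins. It was at 2.22, 1.68 and 1.44 CPM in WT, 2.35, 1.85 and 3.99 CPM in si mH2A1.1 cells, and 1.24, 1.15 and 1.48 CPM in si mH2A1.2 cells. Either knockdown overlapped WT, the knockdowns did not overlap each other, and si mH2A1.1 replicate 3 stood highest. The log2 fold change was 0.62 in si mH2A1.1 cells (standard error 0.30), -0.47 in si mH2A1.2 cells (standard error 0.31) and 1.08 between the knockdowns (standard error 0.30), none of them called. Without si mH2A1.1 replicate 3 the values were 0.24 against WT and 0.70 between the knockdowns. Among samples of the same number, si mH2A1.1 lay above WT in 3 of 3 and si mH2A1.2 below WT in 2 of 3. DESeq2 called the difference between the knockdowns, at 1.09.

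With si mH2A1.1 against WT, 1 of the 9 genes that passed the filter was called higher (Aldh1a7) and 1 lower (Crabp2), where 1.8% of all 19545 tested genes were called. The ranges of 5 of the 9 did not overlap between the groups, against 34.2% of all tested genes. With si mH2A1.2 against WT, 1 gene was called higher (Stra6) and 0 lower, against 0.179% of all tested genes, and 4 did not overlap, against 22.5%. Between the knockdowns, Aldh1a7 was called higher in si mH2A1.1 cells, and Crabp1, Crabp2, Aldh1a3 and Stra6 lower. There, 6.38% of all tested genes were called, and the ranges of 7 of the 9 genes did not overlap, against 39.7%. The median log2 fold change of the 9 genes was -0.21, 0.34 and -0.74 in these comparisons, and that of all tested genes -0.01, 0.00 and -0.01. Because the genes were chosen with these values known, nothing is read from the shares. The comparisons with WT share the same 3 WT samples. When only the 2 groups compared were fitted in edgeR, 0 of the 9 genes were called against WT in either knockdown (3 and 4 at an unadjusted p below 0.05), and DESeq2 on all samples called 2 and 3.

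**Figure D3:**
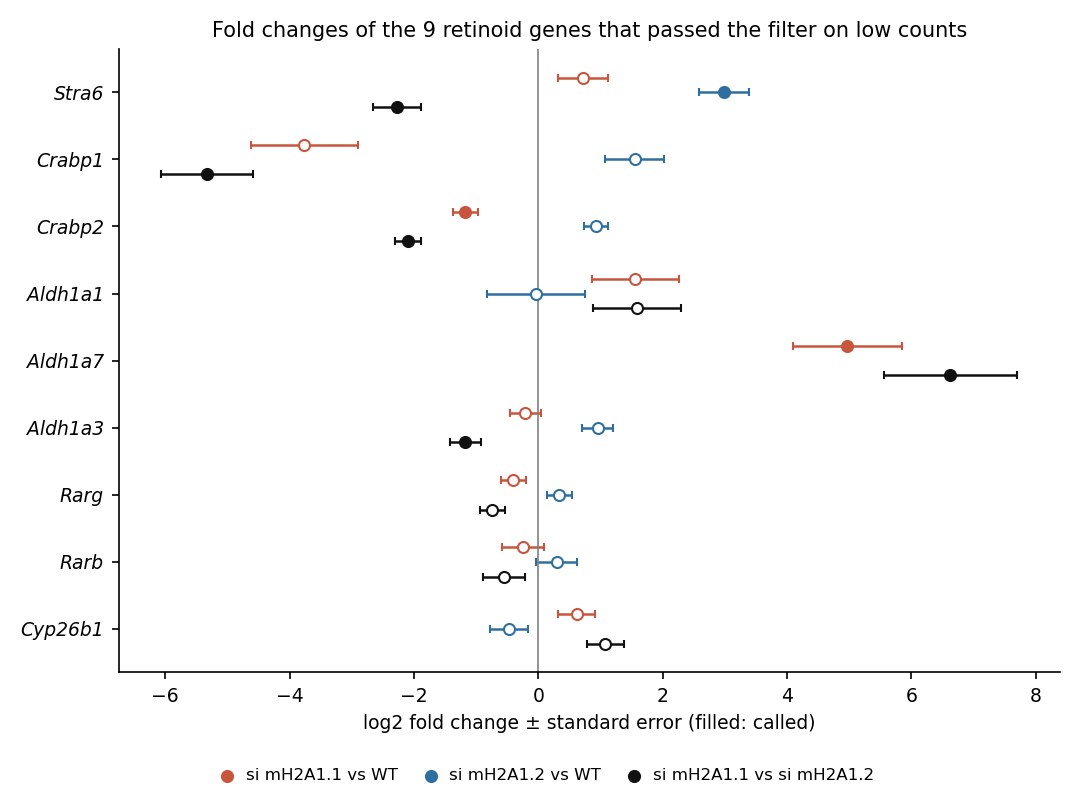
Log2 fold change with its standard error for the 9 genes that passed the filter, for either knockdown against WT and for the si mH2A1.1 cells against the si mH2A1.2 cells. Filled points were called, and Aldh1a7 has no point for si mH2A1.2 against WT. Values for Crabp2 and Crabp1 lie on opposite sides of 0 in the comparisons with WT, and Aldh1a7 has the highest values, at 4.97 and 6.63. These 2 values for Aldh1a7 depend on the prior count, since every WT and si mH2A1.2 library held fewer than 3 counts.

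Markers of other programmes also differed between groups. Of all tested genes, 1.8% were called with si mH2A1.1 against WT, 0.179% with si mH2A1.2 against WT and 6.38% between the knockdowns. The 10 fibroblast and mesenchymal markers summed to 12804 to 15905 CPM in WT, 4987 to 8479 in si mH2A1.1 cells and 20711 to 29110 in si mH2A1.2 cells, the order of groups seen for Crabp1 and Crabp2. Of the 9 that passed the filter, 3 were called lower in si mH2A1.1 cells against WT and 6 between the knockdowns. Against WT, 2 of the 9 had higher fitted values in si mH2A1.1 cells. With si mH2A1.2 against WT, 0 were called and 7 of the 9 had higher fitted values. In each group, 9 of the 10 markers had a count in every sample. Twist1, a mesenchymal transcription factor gene, was at 0 in all si mH2A1.1 samples. Its levels in the other groups are not given here, so this is not read as a decrease. The 8 markers of undifferentiated and cycling myoblasts summed to 292 to 447 CPM in WT, 412 to 775 in si mH2A1.1 cells and 245 to 335 in si mH2A1.2 cells. Of these, 3 were called higher in si mH2A1.1 cells than in si mH2A1.2 cells. Against WT, 0 were called in either knockdown, and the WT range overlapped that of either knockdown. The 10 interferon response genes, which sense or fight viruses, summed to 35.9 to 44 CPM in WT, 156 to 595 in si mH2A1.1 cells and 31.5 to 50.5 in si mH2A1.2 cells. Of these, 9 were called higher in si mH2A1.1 cells against WT, and 0 were called with si mH2A1.2 against WT. Their sums were highest in si mH2A1.1 cells, as was Aldh1a7, while the ranges of WT and si mH2A1.2 cells overlapped. The part of these programmes in the retinoid genes' differences was not tested. Endothelial markers summed to at most 2.99 CPM, leukocyte markers to at most 11.4 CPM and adipocyte markers to at most 18.5 CPM in any sample. Emcn was at 0 in either knockdown, Cd3e likewise, Adgre1 in WT and in si mH2A1.1 cells, Adipoq in WT and in si mH2A1.2 cells, and Lep in si mH2A1.2 cells.

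Among 14373 further genes with a mean of at least 1 CPM, those whose log2 CPM followed each retinoid gene most closely over the 9 samples were ranked by Pearson's r, given as a description. The samples are the same libraries in 3 groups, and a gene with the same order of groups tends to score high. Crabp1 was closest to Rapgef3 and Tmem171 (both r = 0.989) and Lhx9 (0.987). Crabp2 was closest to Gpm6b (0.98), Thap2 (0.978) and Zdhhc6 (0.972). Stra6 was closest to Extl3 (0.99), Ermp1 (0.973) and Ctxn1 (0.969), of which Ermp1 was at 37.4 CPM in WT, 44.7 in si mH2A1.1 cells and 62.8 in si mH2A1.2 cells. Aldh1a7 was closest to Trim8 (0.981), Il1f9 (0.98) and Abhd17b (0.975), Aldh1a1 to Erich1 (0.964), Incenp (0.963) and Rbbp8 (0.96), and Aldh1a3 to Lgr4 (0.961), Fmnl3 (0.959) and Hspa12a (0.954). Rarg was closest to S1pr3 (0.985), Rere (0.982) and Pik3ip1 (0.981), and Rarb to Chst14 (0.968), Fbh1 (0.963) and Tcta (0.959). Cyp26b1 was closest to the interferon-inducible GTPase gene Iigp1 (0.941), then Agap2 and H2-Q5 (both 0.931), and Iigp1 was at 1.28 CPM in WT, 8.86 in si mH2A1.1 cells and 0.413 in si mH2A1.2 cells.

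The rest of the retinoid pathway was described from a list of 81 genes in 8 roles, of which 80 were in the count table and 61 passed the filter. The list was drawn up by role, but with earlier results of these data known. Its counts of calls and its adjusted p-values therefore describe the fit, and nothing is read from the shares. With si mH2A1.1 against WT, 4 were called higher and 0 lower, where 1.8% of all tested genes were called, and 2 of the 4 (Ces1d and Aldh1b1) passed the filter through the si mH2A1.1 samples alone. With si mH2A1.2 against WT, 0 were called in edgeR in either direction, with 10 at an unadjusted p below 0.05, and DESeq2 called 3. The share of all tested genes was 0.179%. In this comparison same-numbered samples deviated together, and with the replicate number as a block 3 genes were called higher, as were 116 in place of 35 of all tested genes in either direction. Among the 3 pathway genes were Nr2f1 (0.90, adjusted p = 0.00788) and Dhrs3 (1.57, adjusted p = 0.00738, named after its value was seen). Between the knockdowns, 6 were called higher in si mH2A1.1 cells, Ces1d and Aldh1b1 among them, and 4 lower, against 6.38% of all tested genes. The median log2 fold change of the 61 genes was -0.05 in si mH2A1.1 cells, 0.09 in si mH2A1.2 cells and -0.12 between the knockdowns.

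In the role of uptake and retinol binding, 9 genes were listed in the table and 4 passed the filter. Rbp4, the plasma carrier of retinol, was at 0.37 ± 0.0967 CPM in WT, 0.0966 ± 0.0989 in si mH2A1.1 cells and 0.295 ± 0.0932 in si mH2A1.2 cells, and was not called.

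Of 15 retinol and retinal oxidoreductases that passed the filter, 1 was called, and 3 between the knockdowns with the replicate number as a block. Dhrs4, which reduces retinal and other carbonyls, was at 6.32, 5.33 and 6.52 CPM in WT, 15.6, 11.6 and 13.2 in si mH2A1.1 cells, and 8.01, 6.31 and 5.88 in si mH2A1.2 cells. It rose by 1.15 on the log2 scale in si mH2A1.1 cells against WT (standard error 0.17, edgeR adjusted p = 0.00461) and was 1.00 higher than in si mH2A1.2 cells (adjusted p = 0.00315). The highest of this role per kilobase in WT were Adh5, Rdh5 and Rdh14, and none of these was called. Of the 5 other aldehyde dehydrogenases, Aldh1b1, a mitochondrial enzyme of the ALDH1 family, was called higher in si mH2A1.1 cells. Its summed counts were 5 in WT, 74 in si mH2A1.1 cells and 2 in si mH2A1.2 cells. That was 13.5 times the WT level (95% exact interval 5.54 to 42.9, which covers counting error only). Aldh2, the mitochondrial enzyme that clears acetaldehyde, was the most abundant of this role in WT, at 37.3 CPM per kb. Its log2 fold change was -0.05 in si mH2A1.1 cells and -0.09 in si mH2A1.2 cells (not called).

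Among 5 genes of retinyl ester storage and release that passed the filter, 2 were called. Ces1d, a carboxylesterase that splits lipid esters, summed to 4 counts in WT, 73 in si mH2A1.1 cells and 0 in si mH2A1.2 cells. The si mH2A1.1 level was 16.7 times that of WT (95% exact interval 6.24 to 62.8), and at least 7.34-fold higher than in si mH2A1.2 cells, taking 3 counts per library as the floor. The interval covers counting error only. Ces1d and Aldh1b1 passed the filter through the si mH2A1.1 samples alone, so their calls are no support and no p is given for them. Lpl, the lipase that frees fatty acids and can act on retinyl esters in lipoproteins, was at 47.7, 48.3 and 47.9 CPM in WT, 77, 63 and 86.4 in si mH2A1.1 cells, and 28, 30.9 and 29.5 in si mH2A1.2 cells. The groups did not overlap, and Lpl was 1.36 higher on the log2 scale in si mH2A1.1 cells than in si mH2A1.2 cells (standard error 0.11, adjusted p = 0.000163). Against WT it was 0.65 in si mH2A1.1 cells (adjusted p = 0.00845, under the fold limit) and -0.70 in si mH2A1.2 cells (adjusted p = 0.0183). Neither Scarb1 nor Bco2, the genes of carotenoid uptake and cleavage that passed the filter, was called.

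The clearance genes beside Cyp26b1 were Cyp26a1, Cyp26c1 and Cyp1b1. Cyp1b1, a cytochrome that oxidises retinoids and steroids among other substrates, was called lower in si mH2A1.1 cells than in si mH2A1.2 cells. It was at 31.8, 37.3 and 35.3 CPM in WT, 11.5, 30.3 and 20 in si mH2A1.1 cells, and 120, 105 and 87.2 in si mH2A1.2 cells. The groups did not overlap. The log2 fold change between the knockdowns was -2.33 (standard error 0.28, edgeR adjusted p = 0.000645), and it was 1.58 in si mH2A1.2 cells against WT (adjusted p = 0.0218). Cyp26a1, whose window held a repeat as well, was at 1.07, 1.52 and 1.75 CPM in WT, 3.19, 1.78 and 3.27 in si mH2A1.1 cells, and 2.73, 1.36 and 1.4 in si mH2A1.2 cells, and was not called in any comparison. Cyp26c1 was at 0.341 ± 0.152 CPM in WT, 1.02 ± 0.455 in si mH2A1.1 cells and 0.484 ± 0.206 in si mH2A1.2 cells, and was not called either.

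Of 11 other receptors and partners that passed the filter, 0 were called in any of the 3 comparisons in edgeR or in DESeq2, with 5, 2 and 6 at an unadjusted p below 0.05 in edgeR. Among the most abundant per kilobase in WT were the corepressor gene Ncor1 and the partner receptor gene Rxrb. Rxrb was at 49.9 ± 3.07 CPM in WT, 40.1 ± 1.14 in si mH2A1.1 cells and 47.1 ± 5.32 in si mH2A1.2 cells.

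Of 27 retinoic acid response genes, 21 passed the filter, and 5 were called in at least 1 comparison, of which 3 are described here. Tgm2, the transglutaminase that crosslinks proteins and is induced by retinoic acid in many cells, was at 165, 143 and 156 CPM in WT, 313, 401 and 312 in si mH2A1.1 cells, and 191, 169 and 130 in si mH2A1.2 cells. It rose by 1.14 on the log2 scale in si mH2A1.1 cells against WT (standard error 0.15, edgeR adjusted p = 0.00368) and was 1.07 higher than in si mH2A1.2 cells (adjusted p = 0.00159). Gprc5a, an orphan receptor gene first described as induced by retinoic acid, was 0.87 higher in si mH2A1.1 cells than in si mH2A1.2 cells (adjusted p = 0.00619), at 26.7 ± 2.89 against 14.7 ± 2.98 CPM. Nr2f1, an orphan nuclear receptor gene, lay on the other side, at 18.2, 28.6 and 28.5 CPM in WT, 13.3, 14.7 and 16 in si mH2A1.1 cells, and 40.3, 52.1 and 46.7 in si mH2A1.2 cells. Its log2 fold change between the knockdowns was -1.66 (standard error 0.18, adjusted p = 0.000408).

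**Figure D4:**
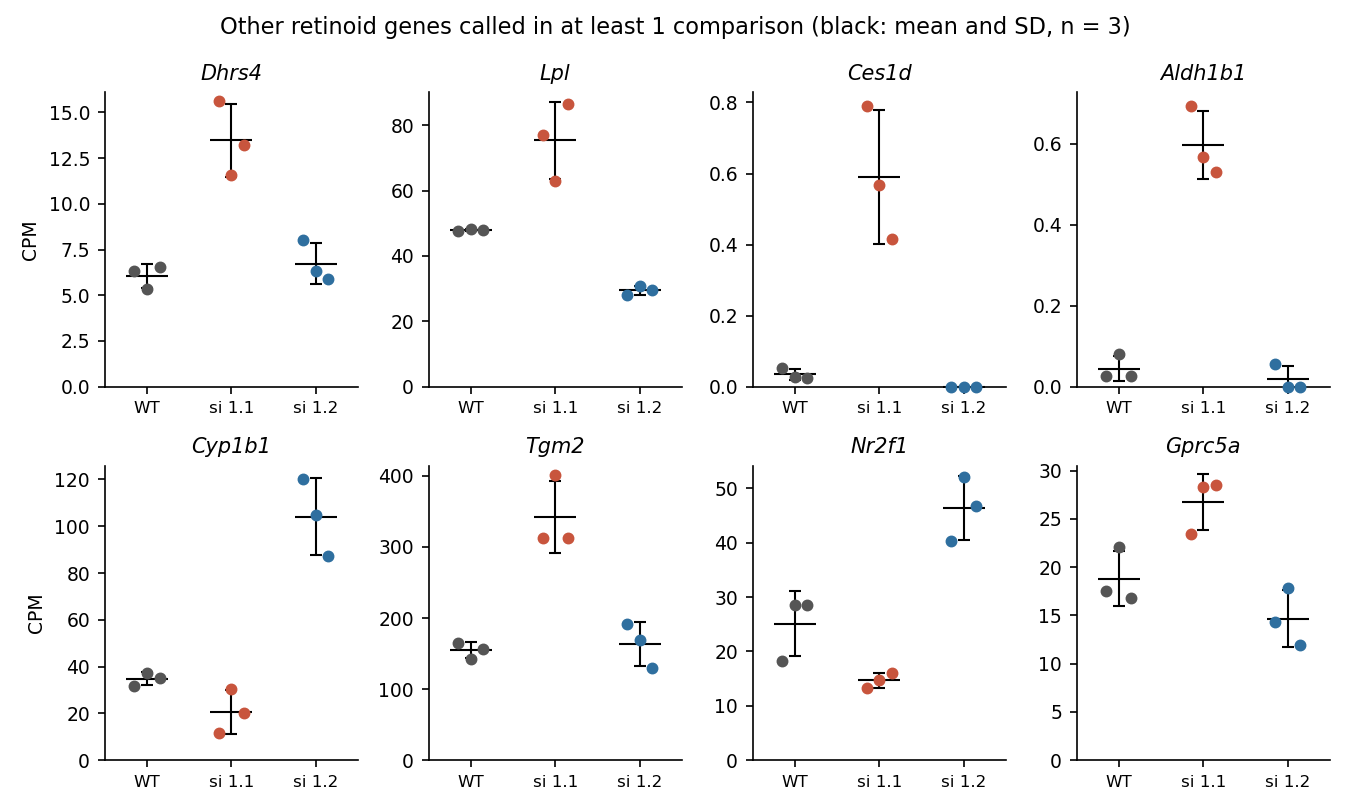
CPM of 8 further retinoid genes called in at least 1 comparison, in each of the 9 samples, 1 panel per gene with its own linear axis from 0. Points are samples and black lines the mean and SD of each group (n = 3). Dhrs4, Lpl, Ces1d, Aldh1b1, Tgm2 and Gprc5a are highest in si mH2A1.1 cells, and Cyp1b1 and Nr2f1 are highest in si mH2A1.2 cells.

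All 4 calls in si mH2A1.1 cells against WT (Dhrs4, Ces1d, Aldh1b1 and Tgm2) were lost when any 1 WT library, si mH2A1.1 replicate 1 or si mH2A1.1 replicate 3 was left out, and that of Aldh1b1 also without si mH2A1.1 replicate 2 or si mH2A1.2 replicate 2. Their log2 fold changes then stayed between 1.01 and 1.25 for Dhrs4 and Tgm2, between 3.69 and 4.33 for Ces1d and between 3.39 and 4.34 for Aldh1b1. Between the knockdowns, the call of Gprc5a was lost without any si mH2A1.1 library and without si mH2A1.2 replicate 1 or 3 (0.73 to 1.03), and that of Dhrs4 without si mH2A1.1 replicate 1 or 3 or si mH2A1.2 replicate 2 or 3 (0.88 to 1.14). The call of Aldh1b1 was lost without si mH2A1.2 replicate 2, at a fitted log2 fold change of 4.30. The calls of Lpl, Tgm2, Cyp1b1 and Nr2f1 between the knockdowns stood in all 9 fits. That of Ces1d stood as well, but Ces1d passed the filter through the si mH2A1.1 samples alone, so this is no support.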

How the data were processed

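Poly(A)-selected RNA of 9 C2C12 samples was sequenced as single reads of about 50 bases. According to the study's methods, the authors quantified the reads with Salmon on GRCm38, and the deposited values are estimated counts per gene, rounded here to whole numbers. The annotation release is not given in the sources used here. A second deposited table of normalized counts was not used here. Groups follow the genotype labels.

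The members and gene lists were chosen with earlier results of these data known. Counts were fitted in edgeR 4.0.16 (R 4.3.3) with TMM scaling, its filter on low counts (19545 genes tested) and the quasi-likelihood test, in 1 model of all 9 samples with 3 contrasts and Benjamini-Hochberg adjustment over all tested genes. Standard errors are the log2 fold change over the root of F. The procedure was tested on simulated counts. DESeq2 1.42.0, its size factors, other filters and cutoffs, a replicate block, fits of only the groups compared and fits without each library were alternatives. Exon lengths came from GENCODE M21, which matched 52762 of 52780 identifiers. Of 81 listed pathway genes, 80 matched.

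The text names the 10 members, pathway genes called in any contrast, up to 3 per role with the highest CPM per kilobase in WT, the 3 genes most like each member, and H2afy. Of these pathway genes, 3 are counted in the list but not reported here. Deviations of same-numbered samples from their group means correlated at 0.196 to 0.331 between si mH2A1.2 and WT, above the limit of 0.1 for treating numbers as pairs. The values were 0.0841 to 0.0976 for si mH2A1.1 and WT and 0.0917 to 0.116 between the knockdowns. Promoter windows and their coordinates are from RefSeq (GRCm38.p6). The planned comparison of protein sequences was not made, since protein sequences were not used here.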

Additional observations from a re-analysis of the deposited data

How the results depend on the processing

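Of 1680 values of 114 log2 fold changes under the alternatives, 1564 counted as the same, 90 lost a call, 22 gained one and 4 moved. The same means the same side of the threshold and the same sign. A change of sign also counted as the same where neither value was called and the shift was below the standard error. Larger changes of sign without a call counted as moved, and 0 values changed sign where either value was called. What follows gives counts of calls in the order of si mH2A1.1 against WT, si mH2A1.2 against WT and the knockdowns against each other. Where a comparison is left out it stayed within 1.5 times. The cause of a change was not tested unless stated.

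Of the retinoid genes (2, 1 and 5 called), DESeq2 called 3 in the second comparison. No filter on low counts gave 2 there, and an adjusted p below 0.05 gave 2. Requiring at least 10 counts in every sample, which removes Aldh1a7 and Crabp1, gave 1 in the first and 3 in the third. Fitting only the 2 groups compared gave 0 in the first and 0 in the second. Leaving out 1 library gave 0 to 2, 0 to 1 and 2 to 5.

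Of the other retinoid genes (4, 0 and 10), DESeq2 called 7 and 3, an adjusted p below 0.05 gave 9, 3 and 16, and at least 10 counts in every sample gave 2 in the first. In the second, no filter gave 3, the replicate block 3 and the 2 groups alone 1. Leaving out 1 library gave 0 to 4 in the first and 0 to 1 in the second.

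Of all tested genes (352, 35 and 1247), DESeq2 called 995, 368 and 1917, no filter gave 800 and 252, and an adjusted p below 0.05 gave 1146, 293 and 2264. The replicate block gave 795 and 116, and the 2 groups alone 195 and 4. Leaving out 1 library, which also leaves fewer samples, gave 32 to 546, 0 to 31 and 505 to 1442.

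The block moved no retinoid gene across the threshold other than Aldh1a3, whose call between the knockdowns it ended (-1.16). The other retinoid genes it added included Cyp26c1 (1.57, adjusted p = 0.00679) in the first comparison. There, same-numbered samples correlated at 0.0841 to 0.0976, just under the limit of 0.1. The mean for other numbers, -0.0447, is no background for this, since deviations from a group mean cancel out within the group. Whether the numbers pair these samples is not settled. Between the knockdowns the block called 13, with Dhrs3 (-1.01, adjusted p = 0.00531) and Rdh12 (1.32, adjusted p = 0.00654) among those added. Genes with few counts per library (Crabp1, Aldh1a1, Aldh1a7, Rarb and Aldh1a2) are limited by depth.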
